A study of Mus musculus with 11 samples.

Results

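The genes described here are the 4 adult haemoglobin genes of the mouse, Hba-a1, Hba-a2, Hbb-bs and Hbb-bt, together with Alas2, the erythroid gene of haem synthesis. They were chosen by symbol as genes that can show how much blood was left in a brain sample, and all 5 were found among the 53700 gene identifiers of the count tables. Expression was measured by QuantSeq, a sequencing method that reads the 3′ end of polyadenylated RNA, in the cerebral cortex of 11 female mice aged 8 months whose strain is given as C57BL/6. Every animal carried 5xFAD, a set of human transgenes that bear mutations of familial Alzheimer's disease and are driven in neurons by the Thy1 promoter. Of these animals, 6 had intact Abi3 (Abi3 WT) and 5 lacked it (Abi3 KO), a null allele present in all cells. By the study's methods the 5xFAD line came from a mixed B6SJL background, the knockout was made on C57BL/6N, and the experimental mice were heterozygous for a Trem2 variant inherited from SJL. The methods also state that the mice were perfused with cold buffer through the heart before the cortex was taken.

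Adult haemoglobin is made of a pair of alpha and a pair of beta chains, each holding a haem group, and its genes are among the most strongly transcribed in developing red cells. Mature mouse red cells have no nucleus but young ones, the reticulocytes, still carry globin mRNA, so blood that remains in the vessels of a dissected tissue brings these transcripts with it. Globin transcription has also been described in neurons and glia at low level. In bulk tissue, a lower count can come from fewer cells of a type or from less RNA per cell, and these cannot be told apart.

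The identity of the copies decides what a read can show, so the end of each coding sequence is given first. The lines below hold the coding part of the last exon, through the stop codon, in the direction of transcription, from the GRCm39 genome. Capitals mark the only base at which the coding sequences of a pair differ. The alpha genes lie on the plus strand of chromosome 11, Hba-a1 at chr11:32233186-32234504 (ENSMUSG00000069919) with the printed stretch at chr11:32234263-32234391, and Hba-a2 at chr11:32246168-32247320 (ENSMUSG00000069917) with the stretch at chr11:32247080-32247208. The beta genes lie on the minus strand of chromosome 7, Hbb-bs at chr7:103475730-103482989 (ENSMUSG00000052305) with the stretch at chr7:103475872-103476000, and Hbb-bt at chr7:103461727-103465047 (ENSMUSG00000073940) with the stretch at chr7:103461863-103461991.
Hba-a1: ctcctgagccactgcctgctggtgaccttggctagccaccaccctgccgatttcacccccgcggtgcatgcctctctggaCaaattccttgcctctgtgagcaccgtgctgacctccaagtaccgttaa
Hba-a2: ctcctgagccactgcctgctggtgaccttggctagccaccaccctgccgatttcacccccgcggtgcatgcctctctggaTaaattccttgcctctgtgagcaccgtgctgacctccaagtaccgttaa
Hbb-bs: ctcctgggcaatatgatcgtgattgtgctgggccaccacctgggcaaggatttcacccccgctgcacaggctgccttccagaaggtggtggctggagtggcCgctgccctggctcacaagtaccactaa
Hbb-bt: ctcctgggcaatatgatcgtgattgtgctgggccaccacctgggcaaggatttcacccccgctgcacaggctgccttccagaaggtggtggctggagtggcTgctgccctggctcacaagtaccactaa

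The alpha copies differed at 1 of 429 coding bases, C381T, counted from the first base of the start codon and read from Hba-a1 to Hba-a2. The beta copies differed at 1 of 444 coding bases, C417T, read from Hbb-bs to Hbb-bt. Neither difference changed the encoded amino acid, so each pair encodes the same protein.

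After the stop codon, the beta pair could be told apart better than the alpha pair. The Hba-a1 and Hba-a2 ends were identical at 90 of 113 aligned positions, and the other 23 were the longer annotated end of Hba-a1. The Hbb-bs and Hbb-bt ends were identical at only 95 of 135 aligned positions (70.4%). Counting kept only reads that aligned to 1 place, and the reads were 76 bases long. Of the 225 windows of that length in the last 300 bases of each transcript, 161 (71.6%) were unique to Hbb-bs and likewise to Hbb-bt, against 77 (34.2%) for Hba-a1 and 76 (33.8%) for Hba-a2. An Hba read could therefore be assigned almost only when it covered the single differing base, and the count of alpha against beta reads is not a ratio of transcript levels. Alas2 (chrX:149330371-149353634, plus strand, ENSMUSG00000025270) has no such copy, and all 225 of its windows were unique.

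The cortices held 3202310 to 5501958 reads in genes, and the floor of 3 counts used here amounted to 0.545 to 0.937 CPM, which are counts scaled by the total of a library. Abi3 itself had 10 to 38 reads in the Abi3 WT animals and 0, 2, 0, 0 and 0 reads in the Abi3 KO animals. All listed markers of neurons, astrocytes, oligodendrocytes and microglia, the cells that make up cortex, were detected.

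Globin reads were few in all animals and varied widely between animals of the same genotype. The 4 adult globin genes together had 1855 reads over the 11 libraries, and their summed level ran from 2.09 to 106.5 CPM. In normalized counts, that is, reads divided by the DESeq2 size factor of the library, the sum was 293.4, 178.7, 25.1, 346.7, 193.4 and 223.2 in Abi3 WT replicates 1 to 6 and 21.0, 46.5, 9.55, 7.91 and 388.1 in Abi3 KO replicates 1 to 5. The highest sum was 49.1-fold the lowest, and both belonged to Abi3 KO animals.

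The animals fell on either side of a gap in this sum. Abi3 KO replicates 1 to 4 and Abi3 WT replicate 3 had sums of at most 46.5, whereas the other 6 animals had sums of at least 178.7, a step of 3.85-fold. Abi3 KO replicate 5 stood with the 5 high Abi3 WT animals and above all of them. The genotypes therefore overlapped at both ends of the order.

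**Figure D1:**
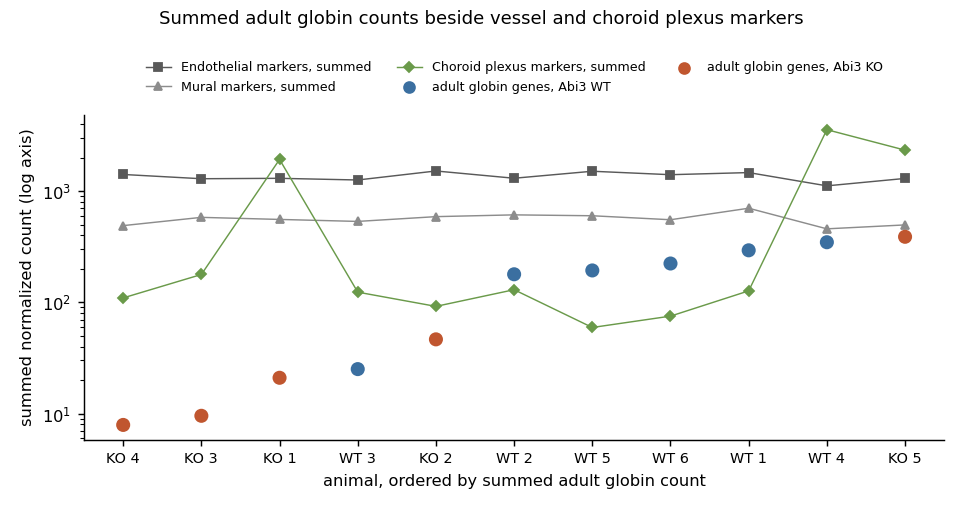
Summed normalized counts (log axis) of the 4 adult globin genes in each animal, ordered by that sum, with the summed endothelial, mural and choroid plexus markers of the same animals as lines. The globin sum spans 49.1-fold and the endothelial sum 1.36-fold.

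Hba-a1, which encodes alpha globin, had 86, 92, 0, 128, 105 and 57 reads in Abi3 WT replicates 1 to 6 and 12, 5, 2, 2 and 80 reads in Abi3 KO replicates 1 to 5. Normalized counts averaged 67.5 ± 38.4 (SD, n = 6) in Abi3 WT and 22.7 ± 38.5 (SD, n = 5) in Abi3 KO. Abi3 WT replicate 3 lay below every Abi3 KO animal, and Abi3 KO replicate 5 lay among the Abi3 WT animals.

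Hba-a2, the second alpha copy, was the rarer of that pair. It had 15, 11, 0, 27, 1 and 6 reads in the Abi3 WT animals and 3, 4, 0, 0 and 24 reads in the Abi3 KO animals. The mean normalized counts were 9.09 ± 9.18 (SD, n = 6) and 6.90 ± 11.6 (SD, n = 5), with the highest value of all in Abi3 KO replicate 5. The ranges of the genotypes overlapped over nearly their whole length.

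Hbb-bs, which encodes beta globin, had the most reads of the 5 genes. Its reads numbered 137, 124, 22, 186, 116 and 118 in Abi3 WT replicates 1 to 6 and 5, 31, 6, 5 and 188 in Abi3 KO replicates 1 to 5. Normalized counts averaged 104.9 ± 52.0 (SD, n = 6) in Abi3 WT and 52.7 ± 90.8 (SD, n = 5) in Abi3 KO. It was the only one of the 5 genes with reads in all 11 animals.

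Hbb-bt, the second beta copy, had 19, 40, 2, 66, 45 and 30 reads in the Abi3 WT animals and 0, 6, 0, 0 and 49 reads in the Abi3 KO animals. The mean normalized counts were 28.5 ± 17.6 (SD, n = 6) and 12.4 ± 24.4 (SD, n = 5). The 3 Abi3 KO animals without an Hbb-bt read had only 5 or 6 Hbb-bs reads each, so Hbb-bt was not detectable there at this depth.

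Alas2, the first enzyme of haem synthesis in erythroid cells, was close to absent. It had 1, 1, 0, 6, 4 and 2 reads in the Abi3 WT animals and 0, 0, 0, 0 and 1 in the Abi3 KO animals, 15 reads in all. Every animal with an Alas2 read belonged to the 6 above the gap in the globin sum, and the 5 animals below it had none. Its mean normalized count over all animals was 1.19, under the limit of 1.5 for testing, and because both genotypes lay near the floor of 3 counts no fold is given.

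The same division held for 4 of the 5 genes, Hba-a1, Hbb-bs, Hbb-bt and Alas2. The globin genes among them are part of the sum that defined the gap, so their division is not separate evidence of it. The 5 animals below the gap had at most 12 Hba-a1, 31 Hbb-bs and 6 Hbb-bt reads, against at least 57, 116 and 19 in the 6 animals above it. Hba-a2 was the exception, with up to 4 reads below the gap and 1 read in Abi3 WT replicate 5, which lay above it.

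**Figure D2:**
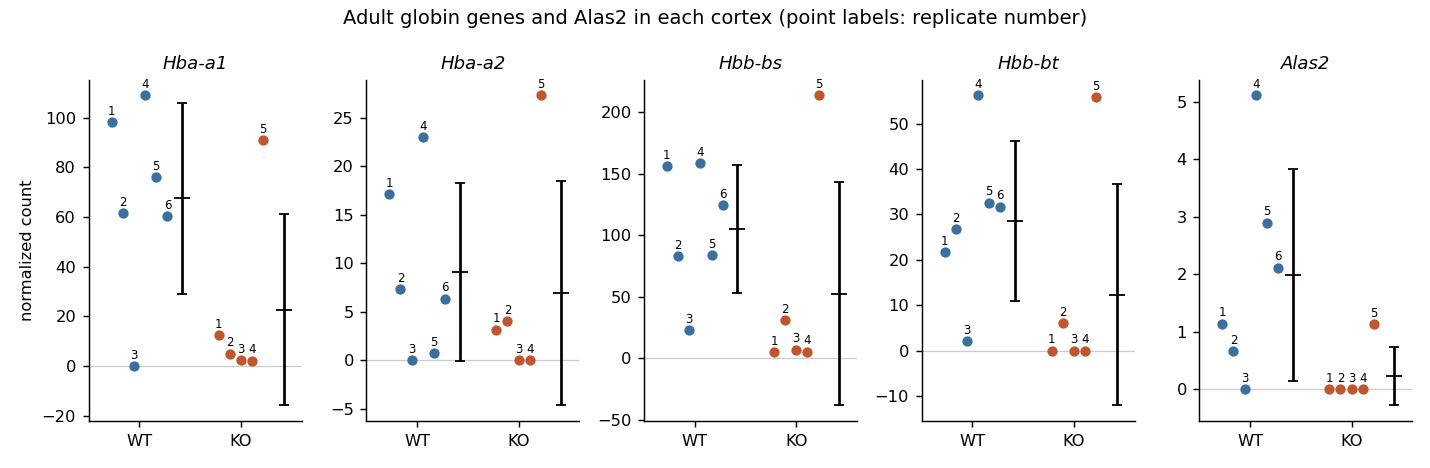
Normalized counts of Hba-a1, Hba-a2, Hbb-bs, Hbb-bt and Alas2 in each animal, labelled by replicate number, with the mean and SD of each genotype (Abi3 WT n = 6, Abi3 KO n = 5) as a black bar; each panel has its own linear axis. Abi3 WT replicate 3 is low and Abi3 KO replicate 5 is high in all 4 globin panels.

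To ask whether the loss of Abi3 went with less globin RNA, the genotypes were compared in the DESeq2 fit over all genes. The 4 adult globin genes had mean values below those of Abi3 WT and none passed the test, which called 95 of 17626 genes (0.539%) at an adjusted p of 0.05 or less. The log2 fold change of Abi3 KO against Abi3 WT was -1.58 (SE 1.17, unadjusted p = 0.179) for Hba-a1 and -0.40 (SE 1.41, unadjusted p = 0.778) for Hba-a2. It was -1.0 (SE 0.959, unadjusted p = 0.299) for Hbb-bs and -1.21 (SE 1.45, unadjusted p = 0.406) for Hbb-bt. Only Hbb-bs had a mean count high enough to be given an adjusted p, which was 0.733. These standard errors were as large as or close to the differences themselves, except for Hba-a1. At an unadjusted p under 0.05 the fit held 1512 genes (8.58%), none of them an adult globin gene. edgeR's quasi-likelihood test also called 0 of the 5 genes where it called 44 of 19035 (0.231%), with 3 of the 5 at an unadjusted p under 0.05, as were 9.13% of all genes. limma called 0 of the 5 where it called 24 of 19035 (0.126%), with 2 of the 5 at an unadjusted p under 0.05, as were 8.16% of all genes.

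A two-sided exact permutation test over the 462 splits of the animals, on log2(normalized count + 1), gave p = 0.195 for Hba-a1, 0.511 for Hba-a2, 0.0498 for Hbb-bs, 0.0519 for Hbb-bt and 0.0541 for Alas2, before any adjustment. The log scale gives less weight to the single high Abi3 KO animal than the DESeq2 mean does. On the log2 scale of the summed adult globin count the means were 7.36 ± 1.38 (SD, n = 6) in Abi3 WT and 4.95 ± 2.28 (SD, n = 5) in Abi3 KO, a difference of -2.41 that is given without a test.

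The comparison rested on Abi3 KO replicate 5. Without it, in one of the fits that left out each animal in turn, the remaining 4 Abi3 KO animals had mean normalized counts of 5.57 ± 4.85 for Hba-a1, 12.3 ± 12.7 for Hbb-bs and 1.52 ± 3.03 for Hbb-bt (SD, n = 4). The Abi3 WT means were then 12.1-fold, 8.50-fold and 18.8-fold as high, and that of Hba-a2 5.06-fold. For Hbb-bt and Hba-a2 the Abi3 KO means, 1.52 and 1.80, lay under the floor of 3 counts, so the size of their folds is uncertain. The log2 fold changes became -3.59 (SE 1.03) for Hba-a1, -2.30 (SE 1.08) for Hba-a2, -3.08 (SE 0.670) for Hbb-bs and -4.19 (SE 1.18) for Hbb-bt. Of all 17656 genes tested in these 10 animals, 240 (1.36%) had a log2 fold change as low as that of Hba-a2 or lower.

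Whether a globin gene passed the test in these 10 animals depended on the tool, and the settings below with a call were chosen after seeing the data. DESeq2 gave none of them an adjusted p because of its filter on mean counts. With that filter off it called 1 of the 4 as lower, Hbb-bs (adjusted p = 0.0105), among 14 lower genes in all (0.0793%). edgeR called 3 as lower, Hba-a1 (adjusted p = 6.11e-05), Hbb-bs (adjusted p = 1.6e-06) and Hbb-bt (adjusted p = 0.00107), likewise among 14 lower genes (0.0742%), and gave Hba-a2 an adjusted p of 0.601. The genotypes did not overlap, with Abi3 KO lower, in 88 (0.499%) of all genes tested in 11 animals and in 148 (0.838%) of those tested in 10, but they overlapped for each of the globin genes in both cases, because Abi3 WT replicate 3 was no higher than Abi3 KO replicate 2.

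**Figure D3:**
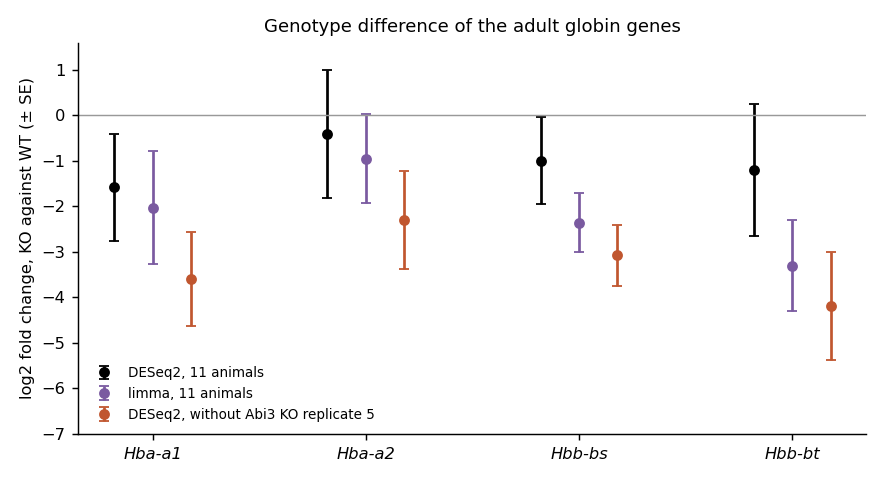
Log2 fold change of Abi3 KO against Abi3 WT for the 4 adult globin genes, with the SE, from DESeq2 and limma on 11 animals and from DESeq2 without Abi3 KO replicate 5. All 12 values are below 0, and those without Abi3 KO replicate 5 run from -4.19 to -2.30.

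The ratio between the beta copies was examined next, since a share within a library needs no normalization. Hbb-bt made up 257 of 1195 adult beta-globin reads over all animals (21.5%). The share was 12.2%, 24.4%, 8.33%, 26.2%, 28.0% and 20.3% in Abi3 WT replicates 1 to 6, on 24 to 252 reads. It was 0 of 5, 16.2% of 37, 0 of 6, 0 of 5 and 20.7% of 237 reads in Abi3 KO replicates 1 to 5.

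Among the animals with enough reads to say so, the Hbb-bt share was not the same everywhere. The exact 95% binomial (Clopper-Pearson) interval was 7.49 to 18.4% in Abi3 WT replicate 1 and 21.2 to 35.6% in Abi3 WT replicate 5, and these do not meet. Such intervals cover counting error only, because copies of a molecule made by PCR were not removed. In the 3 Abi3 KO animals at 0, the interval reached up to 45.9 to 52.2%.

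The mean Hbb-bt share was 19.9 ± 7.98% (SD, n = 6) in Abi3 WT and 7.38 ± 10.2% (SD, n = 5) in Abi3 KO, a difference of -12.5 percentage points that did not pass the test (two-sided exact permutation p = 0.0628, adjusted over the 3 shares 0.188). It passed before adjustment without Abi3 KO replicate 5 (-15.8 points, exact permutation p = 0.0238) or without Abi3 WT replicate 3 (-14.8 points, exact permutation p = 0.0476). The lowest shares in Abi3 KO were those of animals with 5 or 6 beta reads. With at least 20 reads required, a limit set after seeing the data, the difference was -1.44 points (exact permutation p = 0.857, 6 against 2 animals, smallest possible p 0.0357). With the reads of a genotype pooled, the shares were 22.3% and 19.0%.

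Hba-a2 made up 91 of 660 adult alpha-globin reads (13.8%). In Abi3 WT the share was 14.9%, 10.7%, 17.4%, 0.943% and 9.52% in replicates 1, 2, 4, 5 and 6, on 63 to 155 reads, and Abi3 WT replicate 3 had no alpha read. In Abi3 KO it was 3 of 15, 4 of 9, 0 of 2, 0 of 2 and 24 of 104 reads (23.1%).

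Abi3 WT replicate 5 stood out with 1 Hba-a2 read beside 105 from Hba-a1, an interval of 0.0239 to 5.14% that lies below those of replicates 1, 2 and 4. The interval of Abi3 KO replicate 5 was 15.4 to 32.4%. The mean share was 10.7 ± 6.30% (SD, n = 5) in Abi3 WT and 17.5 ± 18.5% (SD, n = 5) in Abi3 KO, a difference of 6.82 points that did not pass the test (two-sided exact permutation p = 0.508). With the reads of a genotype pooled, the shares were 11.4% and 23.5%, and 24 of the 31 Hba-a2 reads in Abi3 KO came from replicate 5. With at least 20 reads required, the difference was 12.4 points, on 5 against 1 animal. All these shares describe the reads that could be placed, since most alpha reads fit both copies.

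The alpha genes gave 660 of the 1855 adult globin reads (35.6%). Their share was 39.3%, 38.6%, 0%, 38.1%, 39.7% and 29.9% in Abi3 WT replicates 1 to 6. It was 75.0%, 19.6%, 25.0%, 28.6% and 30.5% in Abi3 KO replicates 1 to 5. In the 6 animals above the gap it stayed between 29.9% and 39.7%.

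The low animals spread much further. Abi3 WT replicate 3 had 0 alpha reads of 24, which allows a share of up to 14.2%, and Abi3 KO replicate 1 had 15 of 20 (interval 50.9 to 91.3%). Neither interval meets those of the 6 high animals. The genotype means were 30.9 ± 15.6% (SD, n = 6) and 35.7 ± 22.3% (SD, n = 5), without a difference past the test (two-sided exact permutation p = 0.669). The sign of that difference turned when reads were pooled, to 36.8% in Abi3 WT against 31.3% in Abi3 KO.

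**Figure D4:**
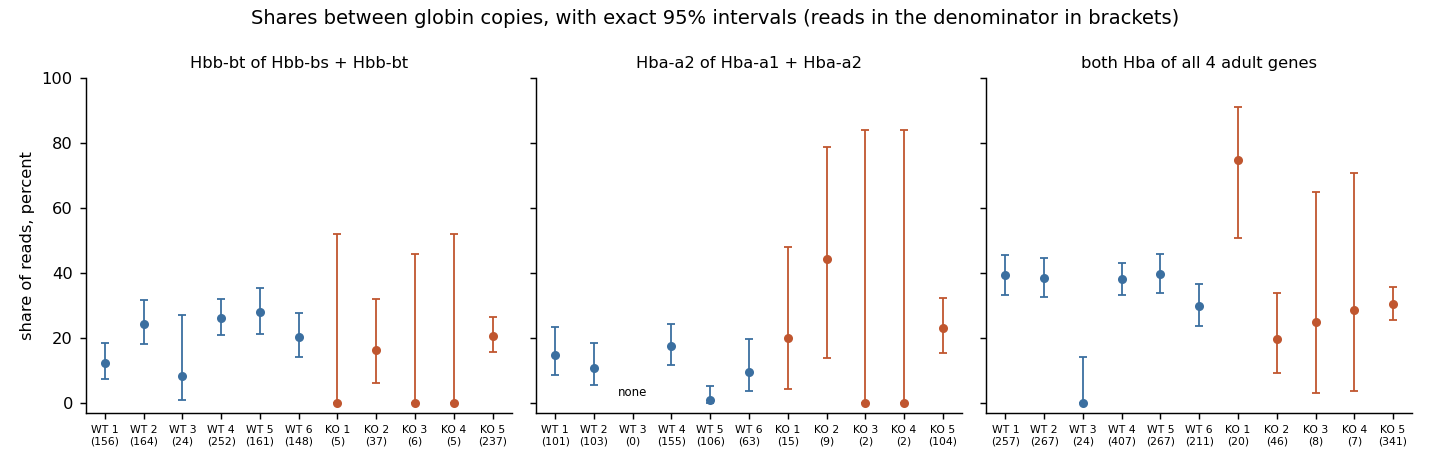
Share of reads in percent, with exact 95% intervals, of Hbb-bt among beta reads, Hba-a2 among alpha reads and alpha among all adult globin reads in each animal; the number of reads behind each share is in brackets. In the beta panel the intervals of Abi3 KO replicates 1, 3 and 4, on 5 to 6 reads, are the widest, and in the alpha panel those of Abi3 KO replicates 3 and 4, on 2 reads each.

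The alpha and beta genes were counted apart, so their summed levels could be set against each other. Because the animals fell into separate clusters, correlations were taken only within the 6 animals above the gap. There the summed alpha and summed beta counts gave Pearson's r = 0.82 (exact permutation p = 0.0764, adjusted over 5 pairs 0.382) and Spearman's rho = 0.77 (exact permutation p = 0.103). Without the 2 animals farthest from the median, r was 0.92. The other 4 pairs did not pass the test either (adjusted exact permutation p of 0.408 to 0.674). Pearson's r was 0.54 for Hbb-bs with Hbb-bt (0.54 without the 2 farthest animals) and 0.58 for Hba-a1 with Hba-a2 (0.85 without them). It was 0.22 for Alas2 with the globin sum and -0.49 for the globin sum with the endothelial sum, and without the 2 farthest animals -0.92 and -0.77. Scaled as CPM instead, the values without the 2 farthest animals were 0.11 and -0.82, so the sign of the Alas2 value depended on the scaling. Values without those animals rest on 4 libraries.

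Of the 9 other globin genes, 2 were tested and 4 were at 0 in all animals. Cygb, the cytoglobin gene of fibroblast-like and other cells, had 262.8 ± 17.2 normalized counts (SD, n = 6) in Abi3 WT and 260.3 ± 27.3 (SD, n = 5) in Abi3 KO. Ngb, the neuroglobin gene of neurons, had 13.1 ± 6.42 and 7.79 ± 4.51. These were the genes tested, and neither passed. The embryonic genes Hba-x, Hbb-bh1 and Hbb-bh2 and the theta gene Hbq1b were at 0 in all animals. Theta gene Hbq1a had 11 reads, 1, 3, 0, 0, 5 and 0 in the Abi3 WT animals and 1, 0, 0, 1 and 0 in the Abi3 KO animals. Embryonic Hbb-y had 5 reads, all in Abi3 KO replicate 1, and Mb, which encodes myoglobin of muscle, had 4 reads, all in Abi3 KO replicate 5.

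The list of red cell genes held 28 symbols, of which 27 had an identifier and 8 were at 0 in every animal. Among those at 0 were Rhag and Kel of the red cell surface, Epb42 of its membrane skeleton, the erythroid regulators Klf1 and Gata1, and Trim10. Slc4a1, the band 3 anion exchanger of the red cell membrane, had 7 reads in all, 3 each in Abi3 KO replicates 2 and 5 and 1 in Abi3 WT replicate 4. A count of 0 allows up to 3 reads per library, and the scarcest of the globin genes with reads in most animals, Hba-a2, had 91 reads in all, so the depth could not show transcripts much rarer than globin. Markers that define red cells apart from globin were thus near 0 in animals on both sides of the gap.

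Of the 13 red cell genes tested none fell, with a median log2 fold change of 0.10 beside -0.00 over all genes. The sum of the whole list ran from 1520 to 1857 over the animals, 1.22-fold, most of it from genes that brain cells also use, such as Car2 and Sptb.

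Haem synthesis genes other than Alas2 had reads in every animal. None of the 8 that were tested was called, and their median log2 fold change was -0.04. Ppox, a late enzyme of the pathway, had 2 to 33 reads, with normalized counts of 13.9 ± 7.34 in 6 Abi3 WT and 6.24 ± 4.03 in 5 Abi3 KO animals (mean ± SD; log2 fold change -1.18, SE 0.573, DESeq2 unadjusted p = 0.0401, no adjusted p given). Alas1, the enzyme that stands in for Alas2 outside erythroid cells, had mean normalized counts of 141.3 ± 40.2 (SD, n = 6) in Abi3 WT and 117.2 ± 24.3 (SD, n = 5) in Abi3 KO. Of 14 tested genes of haem and iron handling, 1 rose and none fell, with a median log2 fold change of 0.07. The gene that rose was Trf, the transferrin gene, which oligodendrocytes express, with normalized counts of 530.9 ± 44.3 in 6 Abi3 WT and 699.2 ± 143.4 in 5 Abi3 KO animals (mean ± SD; log2 fold change 0.40, SE 0.116, DESeq2 adjusted p = 0.0477). Hp, the plasma scavenger of free haemoglobin, was at 0 in all animals.

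Markers of vessels and of other blood cells were set beside the globin sum. The 12 endothelial markers were all tested and none was called, with a median log2 fold change of -0.09. Their summed normalized count was 1114 to 1506 in Abi3 WT and 1290 to 1515 in Abi3 KO, a span of 1.36-fold where globin spanned 49.1-fold. The 6 mural markers summed to 457.5 to 700.8 and 489.0 to 588.8, also with none called, and their median log2 fold change was -0.38, with 5 of 6 values below 0. The lowest unadjusted p among them was that of Pdgfrb, the platelet-derived growth factor receptor of pericytes (log2 fold change -0.63, SE 0.314, DESeq2 unadjusted p = 0.0439). The summed vessel lists therefore did not separate the 5 animals with low globin from the 6 with high globin.

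Blood cells other than red cells were barely detected. The 9 neutrophil markers summed to 0 to 3.14 normalized counts in Abi3 WT and 0 to 3.15 in Abi3 KO, and the 6 lymphocyte markers to 0 to 2.56 and 0 to 4.77. None of these genes reached the limit for testing. The 6 platelet markers summed to 22 to 44.2 in Abi3 WT and to 9.44, 24.2, 26.3, 22.6 and 50.1 in Abi3 KO replicates 1 to 5, with the highest value in Abi3 KO replicate 5, and 3 were tested without a call, with a median log2 fold change of -0.35. Their part in the globin difference was not tested.

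The choroid plexus, a vessel-rich tissue of the ventricles next to the cortex, was unevenly represented. Its 5 markers summed to 3561 normalized counts in Abi3 WT replicate 4, 1923 in Abi3 KO replicate 1 and 2332 in Abi3 KO replicate 5, and to at most 177.9 in the other 8 animals. Most of these high sums was a single marker, Ttr, with 3447, 1847 and 2270 normalized counts. Folr1 was also highest there (20, 18 and 11 reads), and Kl and Kcnj13 followed in part. Clic6 did not follow, with 21, 14 and 8 reads there against 25 in Abi3 WT replicate 2. Abi3 WT replicate 4 and Abi3 KO replicate 5 also had the highest globin sums, whereas Abi3 KO replicate 1 had one of the lowest. Globin was high without it in Abi3 WT replicates 1, 2, 5 and 6, whose choroid plexus sums were 59.4 to 129.8. Reads outside genes, per 100 in genes, were 59.3 to 68.8 in Abi3 WT and 49.8 to 62.5 in Abi3 KO, with 51.1 in Abi3 KO replicate 5 and 59.3 in Abi3 WT replicate 3. With reads outside genes as a covariate in the DESeq2 fit, the log2 fold changes were -3.28 (SE 2.24) for Hba-a1, -1.30 (SE 2.74) for Hba-a2, -3.03 (SE 1.80) for Hbb-bs and -6.09 (SE 2.91) for Hbb-bt. The DESeq2 unadjusted p was 0.143, 0.635, 0.0929 and 0.0363 in that order, and each adjusted p was 0.99998. This covariate differed between the genotypes, the standard errors were larger than without it, and the fit called only 3 of 17626 genes. The part of choroid plexus RNA in the globin difference was not tested.

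The genes whose level followed the globin sum most closely were sought among the more abundant genes, with the 5 members left out. Over the 11 animals and 12899 genes averaging at least 10 normalized counts, the highest Pearson's r with the log2 globin sum were those of Gtpbp6 (0.89), Otx1 (0.87), Crybg3 (0.86), Garem1 (0.86), Pde4a (0.85), Mtus1 (0.84), Map3k2 (0.83), Uqcc4 (0.83), Zfp160 (0.82) and Nup210 (0.82). None of the blood, vessel or choroid plexus genes listed was among them. Those most specific to blood, such as Slc4a1, Klf1 and the neutrophil and lymphocyte markers, averaged under 10 normalized counts and could not appear. These values are a description of 11 libraries that fall into separate clusters by globin, and correlations of the opposite sign were as strong, with 13 genes at or below an r of -0.82 and a lowest value of -0.93.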

How the data were processed

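QuantSeq 3′ libraries of 11 cortices were analysed. The authors trimmed single-end reads, aligned them with STAR (version 2.7.3a) to GRCm39, counted uniquely placed reads per Ensembl gene by strand with HTSeq (version 0.9.1), and deposited raw counts per gene, 1 table per animal. Names and positions came from GENCODE M39, which matched 52610 of 53700 identifiers. The members and lists were chosen with earlier results of these data known. The named genes were the 5 members, Abi3, the listed genes and the 10 genes most like the globin sum. Some listed genes, 1 of them past the threshold, are not reported here.

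Genotype alone was modelled in DESeq2 (version 1.42.0; R version 4.3.3) for genes with at least 10 counts. Those averaging 1.5 or more normalized counts were tested, at an adjusted p of 0.05. Alternatives were edgeR (version 4.0.16), limma (version 3.58.1), TMM factors, no low-count filter, no independent filtering, the replicate number as a block, reads outside genes as a covariate, and leaving out each animal. Shares carry Clopper-Pearson intervals (scipy version 1.17.1). Fits were checked on simulated data. Any 2 libraries differed at 18864 genes or more, so none was a duplicate. The labels number the animals but name no shared litter or batch.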

Additional observations from a re-analysis of the deposited data

Results flagged for a closer look

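Of 18 groups of values examined, 8 held an animal whose distance from the nearest other exceeded Dixon's limit, where chance would give about 1 in 20 groups, or 0.9. The groups are not independent, because 6 of the 8 are the same animal in genes that moved together. Abi3 KO replicate 5 lay far above the other 4 Abi3 KO animals for Hba-a1 (91.0 normalized counts, next 12.6), Hba-a2 (27.3, next 4.04), Hbb-bs (213.9, next 31.3), Hbb-bt (55.8, next 6.06), Alas2 (1.14, which is 1 read, next 0) and the summed adult globin count (388.1, next 46.5). For the alpha share of adult globin reads, Abi3 WT replicate 3 lay below its group with 0% (next 29.9%) and Abi3 KO replicate 1 above its group with 75.0% (next 30.5%), both in libraries with at most 24 globin reads. The cause of these values was not tested.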

How the results depend on the processing

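No alternative run on all 11 animals, and 0 of the 11 fits without 1 animal, brought a globin gene past the threshold, but in 6 of those 11 fits DESeq2's filter gave no globin gene an adjusted p, and in the other 5 it gave 1 or 2 genes one. Without Abi3 KO replicate 5, 1 gene passed with independent filtering off and 3 passed in edgeR, both chosen after seeing the data. Leaving out 1 animal in turn gave log2 fold changes of -3.59 to -1.28 for Hba-a1, -3.08 to -0.70 for Hbb-bs and -4.19 to -0.88 for Hbb-bt, and -2.30 to 0.13 for Hba-a2, which changed sign without Abi3 WT replicate 4. The difference in the log2 globin sum was -3.32 to -1.91. The difference in the Hbb-bt share was -15.8 to -10.7 points, with an exact permutation p of 0.0238 without Abi3 KO replicate 5 and 0.0476 without Abi3 WT replicate 3. That in the Hba-a2 share was 0.0857 to 11.2 points, and 12.1 with pooled reads. That in the alpha share was -5.01 to 8.85 points, below 0 without Abi3 WT replicate 3 or Abi3 KO replicate 1, and -5.57 with pooled reads. The cause was not tested.

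Animals that share a number showed little common deviation over genes averaging at least 10 normalized counts. The correlation was on average 0.0184, with 0 of 5 pairs over 0.1, against -0.00368 for other pairs. This does not settle whether the numbers pair the animals, since a pairing that acts on few genes would hardly show. With the replicate number as a block, which leaves out Abi3 WT replicate 6, no globin gene was given an adjusted p, so 0 could pass. The DESeq2 unadjusted p was 0.0579 for Hba-a1, 0.506 for Hba-a2, 0.0136 for Hbb-bs and 0.0136 for Hbb-bt. The paired differences in the Hbb-bt, Hba-a2 and alpha shares were -12.4, 10.9 and 4.59 points, that in the log2 globin sum was -2.32, and the log2 fold changes of Hba-a1, Hba-a2, Hbb-bs and Hbb-bt were -2.12, -1.14, -2.31 and -3.74. With reads outside genes as a covariate these fold changes were -3.28, -1.30, -3.03 and -6.09, with 0 past the threshold. Correlations without each single animal, or of deviations from genotype means, were not run. Depth limits the shares, since 4 libraries held 24 adult globin reads or fewer.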
